A study of Mus musculus with 8 samples.

Results

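The genes described are 46 components of the skeletal muscle contractile apparatus, taken by name from a table of 21885 named mouse genes measured in skin. They are the myosin heavy and light chains, troponins, actins, tropomyosins, myosin binding proteins, giant and Z-disc proteins, calcium handling proteins and the muscle creatine kinases with myoglobin. All 46 were found in the table. They were picked by name and role rather than by a threshold on measured values, though with earlier results of these libraries known.

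Mouse skin was sequenced in 8 RNA libraries. In 4 of them the treatment was MC903 plus PA (phytic acid), and in the other 4 it was MC903 alone, the group that the submitters titled control. MC903, or calcipotriol, is an analogue of vitamin D whose application to mouse skin is used as a model of atopic dermatitis. Phytic acid, inositol hexaphosphate, is the main phosphate store of plant seeds. Both groups therefore received MC903, and no untreated skin is analysed here. The labels used here give no strain, age, body site, dose or time, and do not say whether the libraries of a group came from separate mice, so the p-values measure only the spread between these libraries.

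Skeletal muscle contracts when myosin thick filaments pull on actin thin filaments within the sarcomere, the repeating unit bounded by Z-discs. Calcium released from the sarcoplasmic reticulum binds troponin C on the thin filament, moves tropomyosin aside and lets myosin bind, and the calcium pump then returns it to the store. Fast, slow and developing fibres use different members of the same gene families. Mouse skin carries a sheet of striated muscle beneath its fat, the panniculus carnosus, which is rich in fast fibres and can be included when skin is sampled in full thickness.

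Summed over the 46 genes, muscle transcripts stood higher in every library of skin given phytic acid. Their FPKM values (fragments per kilobase of exon, scaled to library size, a level corrected for gene length and depth) summed to 13695, 11990, 12894 and 13091 with phytic acid, against 6862, 5997, 6855 and 6372 with MC903 alone. These sums were 4.47%, 4.02%, 3.93% and 4.0% of all FPKM with phytic acid, against 2.12%, 1.78%, 2.22% and 2.03% with MC903 alone, so the groups did not overlap. In bulk skin, fewer muscle cells and less muscle RNA per cell cannot be told apart, and neither can more cells and more RNA per cell. The labels used here do not say how deep the skin was sampled.

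Over all 46 genes, the median difference of mean log2(FPKM + 1), phytic acid minus MC903 alone, was 0.69, with a range of -4.18 to 3.27, and 42 of the differences were above 0. The same median over all 21885 named genes was 0.00, but 9720 of these were below the filter used for testing, where differences lie near 0. Over the 12165 genes tested the median was 0.05. In 31 of the 46 genes every phytic acid library was above every MC903 library, and in 3 every one was below. Among the 18483 named genes with a value, 11.7% were separated upwards and 9.87% downwards in this way.

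A gene was tested with limma where it reached 1 FPKM in at least 4 of the 8 libraries, and was called at a Benjamini-Hochberg adjusted p under 0.05 over all 12165 genes tested. Of the 46 muscle genes 38 were tested. Phytic acid libraries were higher in 29 of them and lower in 3, with 6 not called, while over all tested genes 25.8% were called, 14.2% higher and 11.6% lower. Myh8 entered the test only through its phytic acid libraries, and Myl7 and Tnni1 only through their MC903 libraries, so these 3 had to differ between the groups. Without any filter their adjusted p-values were 0.0287, 0.00585 and 0.00482. The 8 untested genes were Myh3, Myh7, Myl2, Myl3, Myl4, Tnnc1, Tnnc2 and Actc1.

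**Figure D1:**
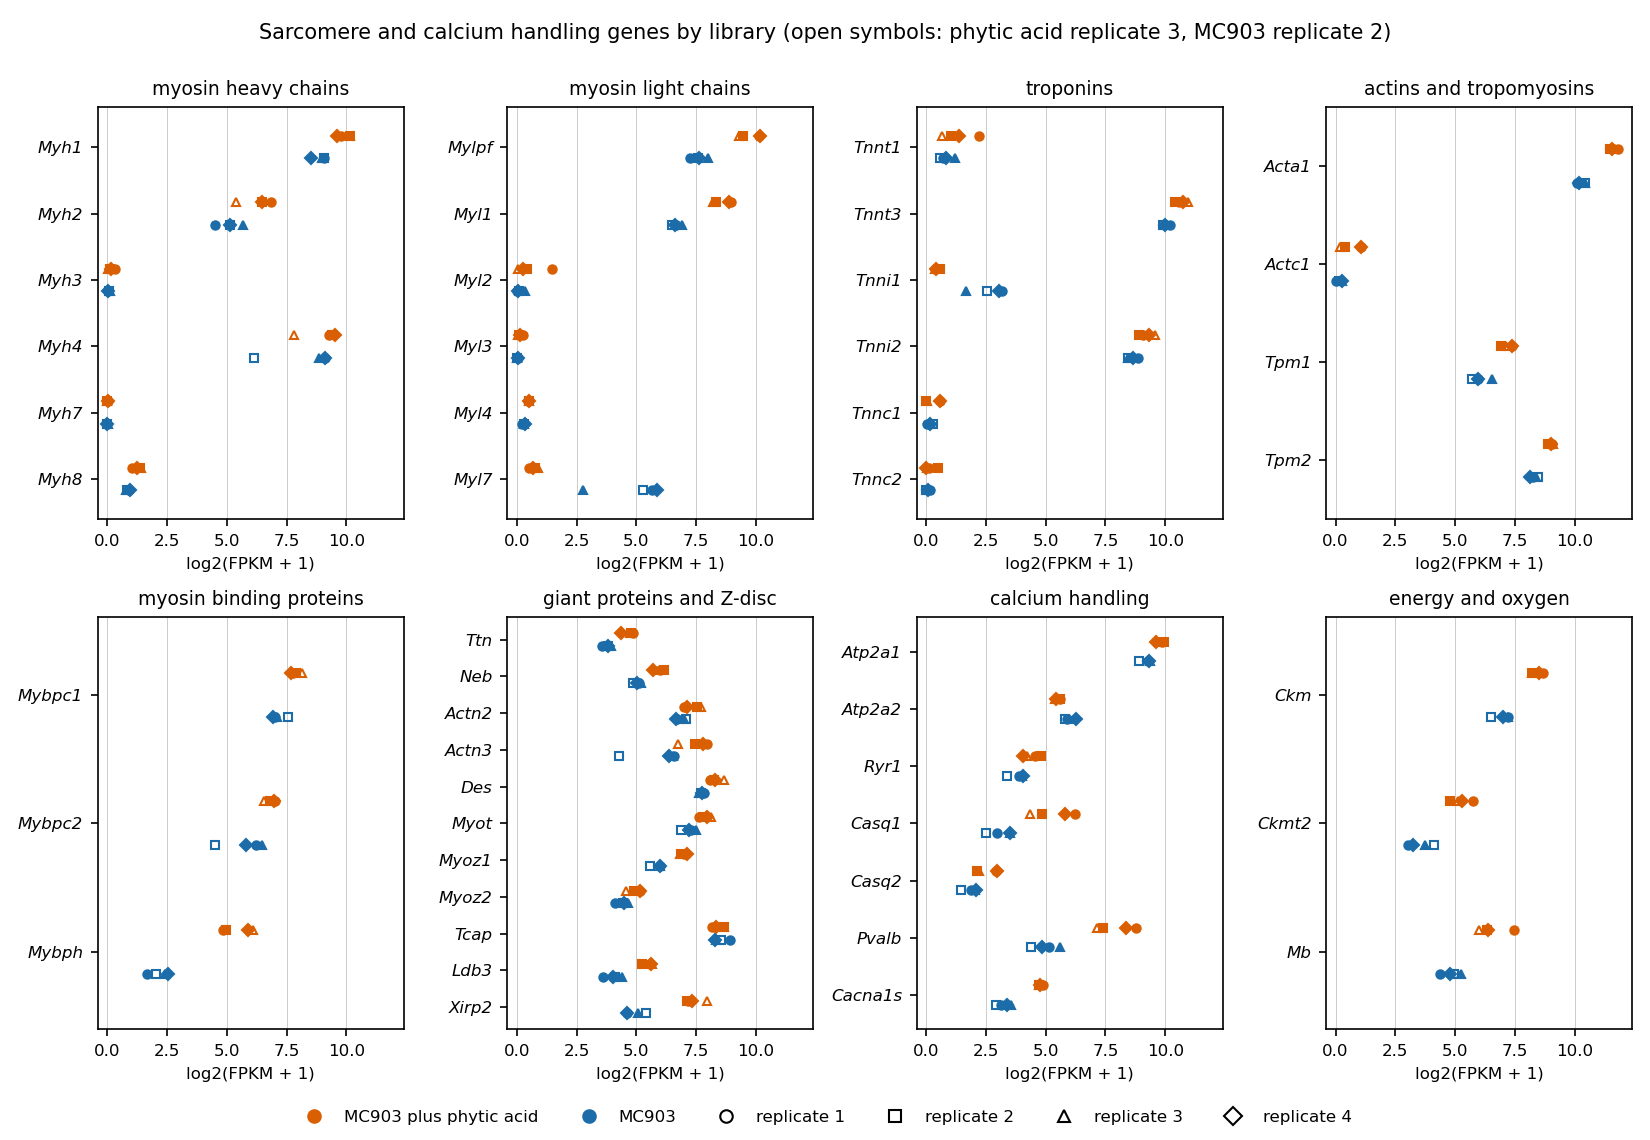
Levels of the 46 genes in each library as log2(FPKM + 1), by role, with MC903 plus phytic acid drawn above MC903 for each gene and a symbol for each replicate number. Acta1 and Tnnt3 lie furthest to the right, Myl7 and Tnni1 have their phytic acid points to the left of the MC903 points, and MC903 replicate 2 stands to the left for Myh4, Actn3 and Mybpc2.

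The genes furthest apart between the groups were Mybph, Pvalb and Xirp2 among those that rose and Myl7 and Tnni1 among those that fell. Mylpf rose most among the abundant filament genes. The 250 bases before the RefSeq start of these 6 genes (GRCm38.p6, written 5′ to 3′ along the gene's strand) are shown because they include both directions of change. Capitals mark 3 motifs known from muscle promoters: the E-box CAGCTG, which myogenic regulators bind, CATTCCT on either strand, which TEAD factors bind, and the MEF2 site. CAGCTG is a case of the general E-box CANNTG, which is left in lower case.
Mybph: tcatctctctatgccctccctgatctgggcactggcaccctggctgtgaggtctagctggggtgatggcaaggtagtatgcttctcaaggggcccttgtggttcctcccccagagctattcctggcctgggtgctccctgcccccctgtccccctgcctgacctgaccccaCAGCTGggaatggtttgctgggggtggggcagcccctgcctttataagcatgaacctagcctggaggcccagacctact
Pvalb: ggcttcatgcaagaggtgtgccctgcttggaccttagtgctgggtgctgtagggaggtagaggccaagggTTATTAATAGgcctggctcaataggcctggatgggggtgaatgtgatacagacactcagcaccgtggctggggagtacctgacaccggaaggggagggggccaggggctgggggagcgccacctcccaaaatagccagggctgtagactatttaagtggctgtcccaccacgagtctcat
Xirp2: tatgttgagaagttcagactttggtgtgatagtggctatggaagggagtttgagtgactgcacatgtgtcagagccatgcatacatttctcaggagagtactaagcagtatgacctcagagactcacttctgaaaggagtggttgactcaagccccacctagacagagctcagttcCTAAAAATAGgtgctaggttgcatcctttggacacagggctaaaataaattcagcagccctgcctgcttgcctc
Mylpf: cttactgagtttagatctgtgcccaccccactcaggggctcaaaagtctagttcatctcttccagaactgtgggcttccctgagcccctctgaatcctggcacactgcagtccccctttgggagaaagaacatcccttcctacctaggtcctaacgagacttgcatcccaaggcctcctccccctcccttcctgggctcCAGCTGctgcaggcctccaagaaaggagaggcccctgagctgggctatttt
Myl7: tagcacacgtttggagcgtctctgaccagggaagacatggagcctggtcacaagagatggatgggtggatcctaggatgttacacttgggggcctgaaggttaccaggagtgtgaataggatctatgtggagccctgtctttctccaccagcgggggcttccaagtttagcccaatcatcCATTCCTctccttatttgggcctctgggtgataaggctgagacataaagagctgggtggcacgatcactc
Tnni1: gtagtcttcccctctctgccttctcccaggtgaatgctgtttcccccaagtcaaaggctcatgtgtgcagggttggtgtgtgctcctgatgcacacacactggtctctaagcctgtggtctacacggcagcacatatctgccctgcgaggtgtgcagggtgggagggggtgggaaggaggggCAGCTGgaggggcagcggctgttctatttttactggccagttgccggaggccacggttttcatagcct
The windows lie at chr1:134193198-134193447, plus strand (Mybph), chr15:78206401-78206650, minus strand (Pvalb), chr2:67445752-67446001, plus strand (Xirp2), chr7:127211358-127211607, plus strand (Mylpf), chr11:5898783-5899032, minus strand (Myl7) and chr1:135799171-135799420, plus strand (Tnni1). The CAGCTG of Mybph begins 79 bases before the start, that of Tnni1 68 and that of Mylpf 51. The MEF2 site begins 180 bases before the start of Pvalb and 74 before that of Xirp2, and CATTCCT begins 70 before that of Myl7.

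RefSeq windows of 300 bases (250 before and 50 after a start) were found for 38 of the 46 genes, 45 windows in all, since some genes have several starts whose windows can overlap. CAGCTG was in 44.4% of them, against 16.3% of all 32851 windows of that length. The MEF2 site was in 17.8% against 3.19%, CATTCCT on either strand in 13.3% against 5.36%, and CANNTG in 84.4% against 72.3%. Both CANNTG and CAGCTG read the same on either strand. A match is a run of letters and not a measured site. Mybph and Tnni1, which moved in opposite directions, each hold CAGCTG.

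Among the heavy chains, the motors of the thick filament, Myh1 (fast type IIx) was the most abundant and rose 2.02-fold. It had 877, 1126, 1130.05 and 781 FPKM with phytic acid, against 539, 526, 501 and 366 FPKM with MC903 alone, with no overlap between the groups (log2 fold change 1.01 ± 0.19, adjusted p = 0.00467). Myh2 (fast type IIa) averaged 82.5 ± 30.8 FPKM with phytic acid and 35 ± 11.5 FPKM with MC903 alone (SD, n = 4 each), a log2 fold change of 1.18 ± 0.32, adjusted p = 0.0265. Myh2 in phytic acid replicate 3, at 40.1 FPKM, lay inside the MC903 range. Its call was lost in 6 of the 8 fits that left out 1 library, without phytic acid replicate 1, 2 or 4 or without MC903 replicate 1, 2 or 4, where the adjusted p reached 0.0728.

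Myh4 (fast type IIb) was not called, although it was the second most abundant heavy chain. It had 623, 679, 220.2 and 725 FPKM with phytic acid, against 544, 69.9, 461 and 554 FPKM with MC903 alone, and its log2 fold change was 0.70 ± 0.66, adjusted p = 0.475. The low values belonged to 1 library of each group, phytic acid replicate 3 and MC903 replicate 2. Without MC903 replicate 2 the log2 fold change of Myh4 was -0.02. The perinatal chain Myh8 was near the filter, with 1.07, 1.54, 1.67 and 1.35 FPKM with phytic acid, against 0.866, 0.742, 0.72 and 0.952 FPKM with MC903 alone. The groups did not overlap, and its log2 fold change of 0.40 ± 0.11, adjusted p = 0.029 was among the 3 smallest in size of the tested members. The call on Myh8 was lost without MC903 replicate 1 or 2.

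Myh1 took 54.3%, 59.5%, 81.2% and 48.9% of the summed heavy chain FPKM with phytic acid, against 48.8%, 83.4%, 49.5% and 38.3% with MC903 alone. Myh4 took 38.6%, 35.9%, 15.8% and 45.4% with phytic acid, against 49.2%, 11.1%, 45.5% and 58.0% with MC903 alone. Myh2 took 2.88% to 7.06% with phytic acid and 1.97% to 5.39% with MC903 alone. The shares overlapped between the groups for all 3 fast chains, while the spread within each group was wide. The slow chain Myh7, which is also the main chain of the adult heart in large mammals, had 0 to 6 recovered reads in every library, and the embryonic chain Myh3 3 to 63. In the 5 libraries where Myh7 was listed at 0, the limit that 3 reads allow is 0.0081 to 0.011 FPKM. That limit covers counting error only and takes reads as independent. Of low recovered counts, 69.5% were even on average over the libraries. If reads came in pairs, the limit would be higher.

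**Figure D2:**
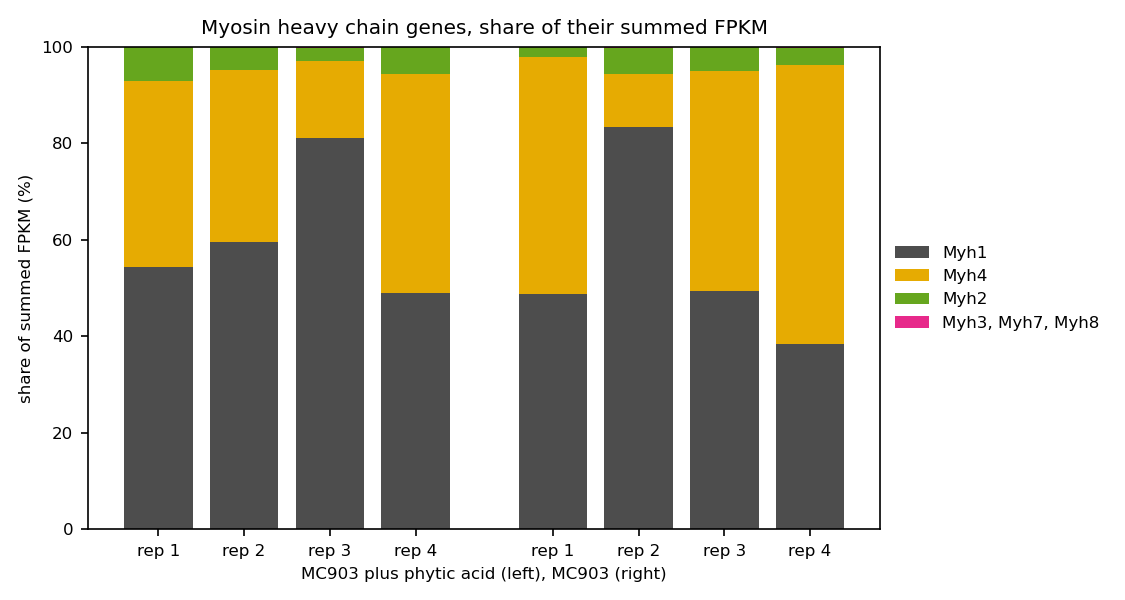
Share (%) of the summed FPKM of the 6 myosin heavy chain genes taken by each, per library, with MC903 plus phytic acid on the left and MC903 on the right. Myh1 takes over 80% only in phytic acid replicate 3 (81.2%) and MC903 replicate 2 (83.4%), and Myh3, Myh7 and Myh8 together are too small to see.

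The fast light chains, which clasp the neck of the heavy chains, had larger log2 fold changes than any heavy chain tested. Mylpf, the fast regulatory light chain, rose 4.51-fold, with 1121, 702, 624 and 1146 FPKM with phytic acid, against 152, 191, 257 and 197 FPKM with MC903 alone (log2 fold change 2.14 ± 0.24, adjusted p = 0.000588). Myl1, the fast essential light chain, rose in parallel and averaged 398 ± 105 FPKM with phytic acid and 101 ± 13 FPKM with MC903 alone (SD, n = 4 each; 1.93 ± 0.19, adjusted p = 0.000367). Phytic acid replicates 1 and 4 were high for both genes, and every phytic acid library was above every MC903 library. The slow and cardiac light chains Myl2 and Myl3 stayed under 2 FPKM in all 8 libraries. Myl2 had 0.0239 to 1.74 FPKM with phytic acid and 0 to 0.272 with MC903 alone, with overlap. Myl3 had 0.0455 to 0.192 FPKM with phytic acid and 0 to 0.0309 with MC903 alone, without overlap but on only 0 to 16 reads. The embryonic light chain Myl4 had 0.376 to 0.428 FPKM with phytic acid and 0.163 to 0.277 with MC903 alone, without overlap but below the filter.

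Myl7, the regulatory light chain of the heart's atria, went the other way and by more than any other member. It had 0.416, 0.708, 0.867 and 0.582 FPKM with phytic acid, against 48.8, 37.5, 5.9 and 56.7 FPKM with MC903 alone (10, 16, 22 and 14 reads with phytic acid, against 912, 710, 131 and 1251 reads with MC903 alone). Phytic acid libraries were uniformly low, and MC903 replicate 3 was far below the other MC903 libraries yet above all phytic acid libraries. The log2 fold change was -4.18 ± 0.57, adjusted p = 0.00133. The gene lies at chr11:5896637-5898782, minus strand, and shares no exon base with another annotated gene. The other cardiac markers did not accompany it: Myh6, Ryr2, Mybpc3 and Pln averaged under 0.2 FPKM in both groups, and of 10 cardiac markers 3 were tested and Myl7 alone was called.

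Among the tested troponins, the fast Tnnt3 and Tnni2 were called higher, the slow Tnni1 was called lower and the slow Tnnt1 was not called. Tnnt3, fast troponin T, which ties the complex to tropomyosin, was second in level only to Acta1 and had 1545, 1348, 1954 and 1714 FPKM with phytic acid, against 1180.5, 951, 983 and 1011 FPKM with MC903 alone. The groups did not overlap, and the log2 fold change was 0.66 ± 0.17, adjusted p = 0.0199. Fast troponin I, Tnni2, the inhibitory subunit, averaged 601 ± 121 FPKM with phytic acid and 389.6 ± 52.6 FPKM with MC903 alone (SD, n = 4 each; 0.61 ± 0.17, adjusted p = 0.0279). Leaving out 1 library removed the call on Tnnt3 without phytic acid replicate 4 or MC903 replicate 2 or 4, and the call on Tnni2 without phytic acid replicate 3 or 4 or MC903 replicate 2 or 4.

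Tnni1, the slow troponin I, fell. It had 0.30, 0.50, 0.291 and 0.327 FPKM with phytic acid, against 7.98, 4.85, 2.18 and 7.27 FPKM with MC903 alone, so that every MC903 library was above every phytic acid library and MC903 replicate 3 was again the lowest of its group. The log2 fold change was -2.17 ± 0.28, adjusted p = 0.00106. As a ratio of FPKM to the fast gene Tnni2, Tnni1 stood at 0.000385 to 0.00104 with phytic acid and 0.00621 to 0.0182 with MC903 alone. Slow troponin T, Tnnt1, was not called, with 3.6, 1.04, 0.57 and 1.58 FPKM with phytic acid, against 0.63, 0.51, 1.33 and 0.801 FPKM with MC903 alone and a log2 fold change of 0.47 ± 0.30, adjusted p = 0.272.

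Troponin C, the calcium-binding subunit, was almost unrecorded in either isoform. Fast Tnnc2 had 3, 13, 1 and 0 reads with phytic acid, against 3, 0, 2 and 2 reads with MC903 alone, although its fast partners Tnnt3 and Tnni2 were among the most abundant members. The slow and cardiac Tnnc1 had 0 to 20 reads per library. Of the 800 exon bases annotated for Tnnc2 (chr2:164777161-164779967, minus strand), 592 are also exon of Ube2c on the opposite strand. Ube2c, a ubiquitin-conjugating enzyme of mitosis, averaged 4.43 ± 1.3 FPKM with phytic acid and 8.18 ± 0.744 FPKM with MC903 alone (SD, n = 4 each; -0.79 ± 0.17, adjusted p = 0.00985). The sources used here do not say whether the authors' counting used strand or dropped reads in shared exons, and the part of this sharing in the low Tnnc2 values was not tested.

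Skeletal alpha-actin, Acta1, the core of the thin filament, was the most abundant member and rose 2.55-fold. It had 3557, 2867, 3325 and 3024 FPKM with phytic acid, against 1096, 1399, 1367 and 1156 FPKM with MC903 alone (log2 fold change 1.35 ± 0.18, adjusted p = 0.00102). By mean FPKM it was the 5th of all genes with phytic acid and the 25th with MC903 alone. Cardiac alpha-actin, Actc1, an isoform of developing muscle, had 0.144 to 1.09 FPKM with phytic acid and 0 to 0.198 with MC903 alone. The tropomyosins, which cover the myosin-binding sites on actin, also rose: Tpm1 by 1.16 ± 0.18, adjusted p = 0.00215, and Tpm2 by 0.70 ± 0.12, adjusted p = 0.00349, on the log2 scale. Both tropomyosin genes are also used by smooth muscle and other cells.

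Among the proteins that bind myosin, Mybph (myosin binding protein H) had the largest rise of all members, 12.6-fold by means. It had 27.9, 29.9, 66.5 and 57.5 FPKM with phytic acid, against 2.14, 3.12, 4.39 and 4.77 FPKM with MC903 alone (log2 fold change 3.27 ± 0.30, adjusted p = 0.00030). Phytic acid replicates 3 and 4 were high, and the lowest phytic acid library was still far above the highest MC903 library. Of the 2329 exon bases of Mybph (chr1:134193448-134201232, plus strand), 1162 are also exon of Adora1 on the opposite strand. Adora1, the A1 adenosine receptor, averaged 0.816 ± 0.215 FPKM with phytic acid and 0.385 ± 0.104 with MC903 alone and was below the filter.

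Mybpc1, the slow-type myosin binding protein C, was the most abundant of the class and had 219, 234, 282 and 206 FPKM with phytic acid, against 129.9, 188, 135 and 119.9 FPKM with MC903 alone. Its groups did not overlap, with MC903 replicate 2 the highest of its group (log2 fold change 0.72 ± 0.16, adjusted p = 0.0113). Mybpc2, the fast type, was just outside the threshold. It had 128, 111, 93.1 and 125 FPKM with phytic acid, against 73.7, 21.7, 88.8 and 54.6 FPKM with MC903 alone, again without overlap, and MC903 replicate 2 was the lowest of its group (1.09 ± 0.37, adjusted p = 0.055). Mybpc2 was called higher without MC903 replicate 2 or 3, at 0.67 and 1.33.

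The giant proteins moved together. Ttn (titin), the spring that spans the sarcomere from Z-disc to M-line, averaged 25 ± 3.63 FPKM with phytic acid and 12.9 ± 1.51 FPKM with MC903 alone, and Neb (nebulin), which runs along the thin filament, 61.7 ± 7.81 FPKM with phytic acid and 32.3 ± 3.48 FPKM with MC903 alone (SD, n = 4 each). Their log2 fold changes were 0.90 ± 0.13 and 0.91 ± 0.12, with adjusted p-values of 0.00159 and 0.00106, and neither gene's groups overlapped.

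At the Z-disc, 7 of the 9 other genes rose. Xirp2, an actin-binding repeat protein of the muscle attachment sites and Z-disc, rose most, with 141, 139.6, 250.01 and 160.3 FPKM with phytic acid, against 23.6, 41, 33.1 and 23.7 FPKM with MC903 alone (2.47 ± 0.23, adjusted p = 0.00030). Phytic acid replicate 3 was the highest. Ldb3, which links alpha-actinin to signalling proteins, rose by 1.49 ± 0.16, adjusted p = 0.000532, and Myoz1, the fast-fibre calcineurin-binding calsarcin, by 1.06 ± 0.12, adjusted p = 0.000662. Des, the intermediate filament desmin, Myot, the Z-disc protein myotilin, and Myoz2, the slow-fibre calsarcin, rose by 0.60, 0.66 and 0.53 (adjusted p = 0.0148, 0.0148 and 0.0357). The groups of Myoz2 overlapped, and leaving out any of phytic acid replicates 1, 2 and 4 or MC903 replicates 1, 2 and 4 removed its call.

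The 2 alpha-actinins, which crosslink thin filaments at the Z-disc, differed in spread. Actn3, the fast-fibre form, had 246, 174, 108 and 219.7 FPKM with phytic acid, against 94.9, 18.3, 90.6 and 82.5 FPKM with MC903 alone. The groups did not overlap, the lowest libraries were phytic acid replicate 3 and MC903 replicate 2, and the log2 fold change of 1.55 ± 0.49, adjusted p = 0.0457 was just inside the threshold. That call was lost without phytic acid replicate 1, 2 or 4 or without MC903 replicate 1 or 4. Actn2, present in all fibre types, was not called and averaged 164 ± 39.1 FPKM with phytic acid and 116 ± 16.8 FPKM with MC903 alone (SD, n = 4 each; 0.48 ± 0.18, adjusted p = 0.0775). Actn2 was called higher without phytic acid replicate 1.

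Tcap (telethonin), the titin cap of the Z-disc, was the most abundant gene of the class and showed no call. It had 287, 404, 409.6 and 317 FPKM with phytic acid, against 480.1, 373, 321 and 311 FPKM with MC903 alone, overlapping throughout, and its log2 fold change was -0.06 ± 0.18, adjusted p = 0.826. Its sign changed without phytic acid replicate 1 or MC903 replicate 1, to 0.03 and 0.07.

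Of the 7 calcium handling genes 5 rose, Atp2a2 fell and Ryr1 was not called. Atp2a1, the fast-fibre calcium pump SERCA1, had 927, 996, 848 and 793 FPKM with phytic acid, against 621, 482, 659.8 and 639.9 FPKM with MC903 alone, without overlap (log2 fold change 0.57 ± 0.15, adjusted p = 0.0228). Its call was lost without phytic acid replicate 1 or 2 or MC903 replicate 1 or 2. Atp2a1 shares 763 of its 3477 exon bases with Rabep2 on the opposite strand, which averaged 2.68 ± 0.755 FPKM with phytic acid and 2.42 ± 0.329 FPKM with MC903 alone (SD, n = 4 each).

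Pvalb (parvalbumin), the cytosolic calcium buffer that speeds relaxation of fast fibres, rose 8.33-fold. It had 435, 169.5, 142 and 327 FPKM with phytic acid, against 34.5, 19.8, 46.8 and 27.8 FPKM with MC903 alone (2.94 ± 0.37, adjusted p = 0.00089). Phytic acid replicates 1 and 4 were high, as for the fast light chains. Casq1, the calcium store protein of the fast reticulum, had 74.4, 27.9, 19.4 and 54.3 FPKM with phytic acid, against 6.8, 4.72, 10.4 and 10.2 FPKM with MC903 alone, in the same order of phytic acid libraries (2.19 ± 0.40, adjusted p = 0.0044). Its slow and cardiac relative Casq2 was close to the threshold, with 6.58, 3.42, 3.63 and 6.71 FPKM with phytic acid, against 2.62, 1.76, 3.09 and 3.27 FPKM with MC903 alone (0.69 ± 0.22, adjusted p = 0.0456). The call on Casq2 was lost without phytic acid replicate 1 or 4 or MC903 replicate 1, 2 or 4.

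Cacna1s, the voltage sensor of the transverse tubule, had the smallest adjusted p of all members. It had 28.4, 25.6, 25.7 and 26.1 FPKM with phytic acid, against 7.68, 6.68, 10.8 and 9.42 FPKM with MC903 alone, a tight set of values with phytic acid (1.53 ± 0.13, adjusted p = 0.000237). It shares 1309 of its 6550 exon bases with Gm37759 on the opposite strand. Ryr1, the release channel that the sensor opens, was not called, with 22.3, 27, 17.7 and 15.7 FPKM with phytic acid, against 13.7, 9.35, 15.2 and 15.6 FPKM with MC903 alone. Its groups were only just separate, at 15.7 against 15.6 FPKM, and its log2 fold change was 0.58 ± 0.19, adjusted p = 0.0544. Ryr1 was called higher without phytic acid replicate 4 or MC903 replicate 3.

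Atp2a2, the SERCA2 pump of slow fibres and heart, which is also made in keratinocytes and most other cells, fell. It had 47.3, 47.1, 41.4 and 41.8 FPKM with phytic acid, against 58, 55.8, 61.9 and 75.8 FPKM with MC903 alone, without overlap, and MC903 replicate 4 was the highest. The log2 fold change was -0.48 ± 0.11, adjusted p = 0.0139.

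The 3 genes of energy and oxygen supply all rose without overlap. Ckm, the cytosolic muscle creatine kinase that regenerates ATP at the filaments, had 406, 300.2, 293 and 363 FPKM with phytic acid, against 147, 90.3, 147 and 126 FPKM with MC903 alone (1.42 ± 0.18, adjusted p = 0.000926). The mitochondrial creatine kinase Ckmt2 averaged 37.7 ± 10.8 FPKM with phytic acid and 11.1 ± 4.02 FPKM with MC903 alone, and Mb (myoglobin), the oxygen store of muscle, 100.3 ± 51.1 FPKM with phytic acid and 28.2 ± 7.29 FPKM with MC903 alone (SD, n = 4 each). Their log2 fold changes were 1.70 ± 0.25 and 1.72 ± 0.30, with adjusted p-values of 0.00188 and 0.00392. Mb shares 476 of its 1492 exon bases with opposite-strand genes, among them Apol6. Apol6 averaged 4.43 ± 2.01 FPKM with phytic acid and 1.63 ± 0.826 FPKM with MC903 alone (SD). It was itself called higher by limma (1.02 ± 0.30, adjusted p = 0.0342), a call kept in 2 of the 8 fits that left out 1 library. The part of this sharing in the Mb values was not tested.

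**Figure D3:**
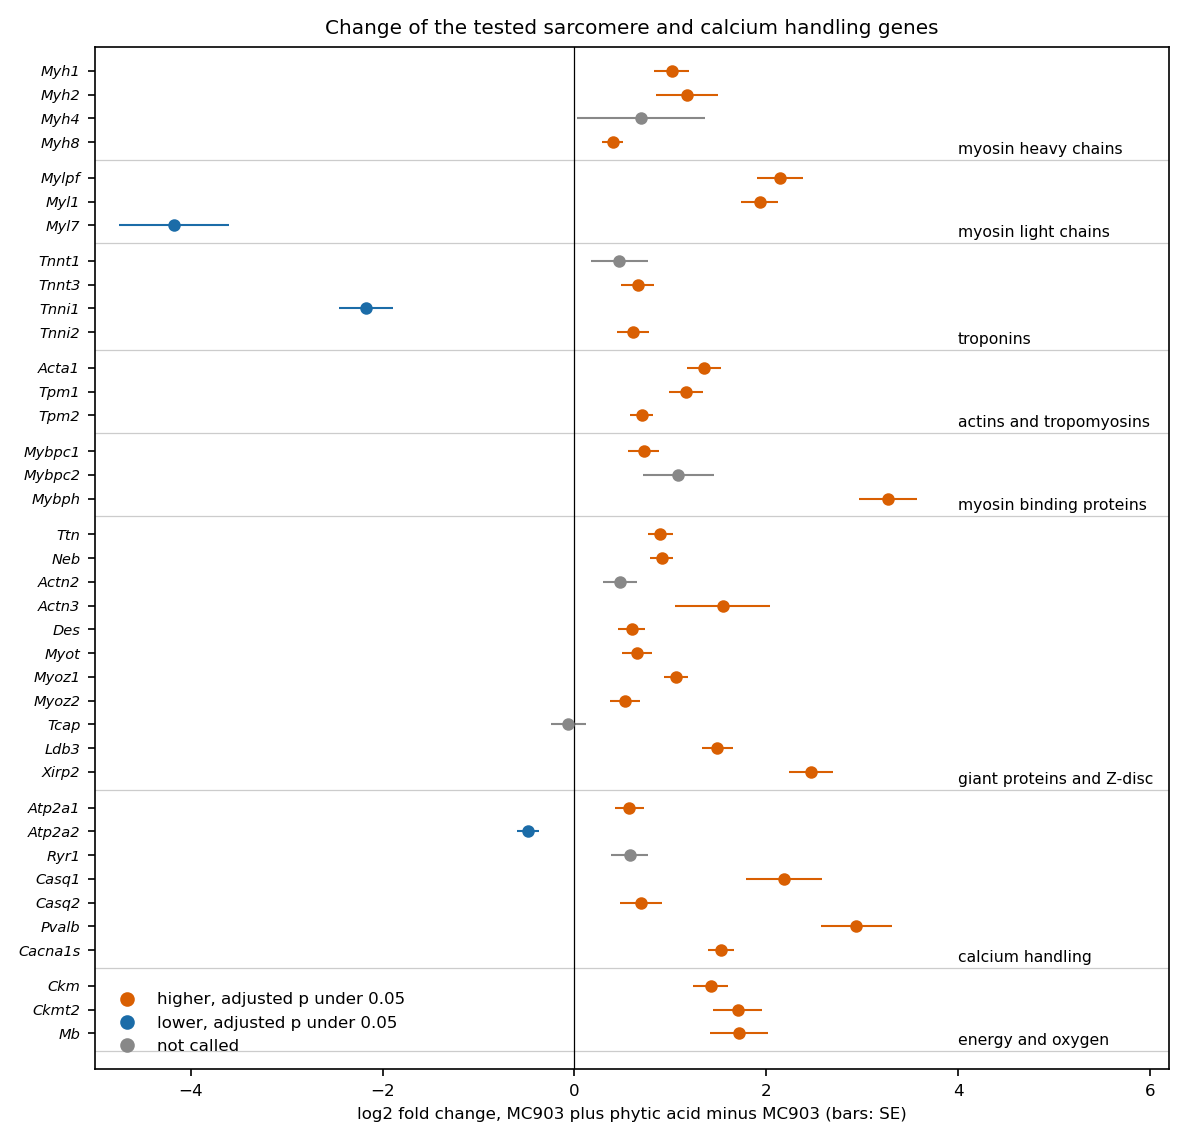
Log2 fold change of the 38 tested genes, MC903 plus phytic acid minus MC903, by role, with bars for the SE. The 29 called higher lie between 0.40 (Myh8) and 3.27 (Mybph), and the 3 called lower are Myl7 (-4.18), Tnni1 (-2.17) and Atp2a2 (-0.48).

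Grouped by fibre type, the 14 fast isoforms had a median difference of 1.07, with 11 called higher, 0 lower, 2 not called (Myh4 and Mybpc2) and 1 not tested (Tnnc2). At an unadjusted p under 0.05 or with voom, 0 fast isoforms were lower. Over all tested genes 14.2% were called higher and 11.6% lower. The 9 slow or cardiac isoforms had a median of 0.11, with 2 called higher (Casq2 and Myoz2), 2 lower (Tnni1 and Atp2a2), 1 not called (Tnnt1) and 4 not tested. Of these 9 differences 7 were above 0 and 2 below. The 4 untested genes had low levels, where log2(FPKM + 1) shrinks a change. Tnnc1, which sets the median of 0.11, had a ratio of means of 1.85, and Myl3, also at 0.11, one of 5.68. The medians of the fast and slow classes are therefore not comparable as sizes of change. Of the 4 developmental isoforms, Myh8 was tested and called. The summed FPKM of the fast isoforms was 6338 to 7254 with phytic acid and 2801 to 3891 with MC903 alone. That of the slow or cardiac isoforms was 69.1 to 94.5 with phytic acid and 84.1 to 108.8 with MC903 alone, and without Atp2a2 it was 27.6 to 47.2 with phytic acid and 27.3 to 33.0 with MC903 alone, so the groups overlapped either way. The slow-type Mybpc1 and the atrial Myl7 were in none of these classes. With Mybpc1 added, after the values were seen, the slow or cardiac sum was 292 to 351 FPKM with phytic acid and 215 to 272 with MC903 alone, higher without overlap, and with Myl7 added as well it was 292 to 352 and overlapped the 234 to 309.7 of MC903 alone. The direction of this sum depends on which genes are counted. The difference between the fibre classes was not tested.

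The ratio of one member to another within a library shows unequal change, and the pairs given here were chosen after their values were seen. Mybph stood to Mybpc1 at 0.127 to 0.279 with phytic acid and 0.0165 to 0.0398 with MC903 alone. Xirp2 stood to Actn2 at 0.753 to 1.20 with phytic acid and 0.230 to 0.304 with MC903 alone, and Casq1 to Atp2a1 at 0.0228 to 0.0802 with phytic acid and 0.0098 to 0.0159 with MC903 alone. Tnnt3 stood lower relative to its thin-filament partner Acta1, at 0.434 to 0.588 with phytic acid and 0.680 to 1.08 with MC903 alone. Of 10 pairs computed 6 did not overlap between the groups, these 4 among them. The 4 that overlapped were Mylpf to Acta1, Myl1 to Acta1, Myh4 to Myh1 and Tnnc2 to Tnnt3.

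The libraries of a group did not keep 1 order over the members. Phytic acid replicate 1 was the highest of its group for 19 of the 46 genes and replicate 3 for 14, but replicate 3 was also the lowest for 19. Among MC903 libraries, replicate 3 was the highest for 19 genes and replicate 2 the lowest for 21.

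Other muscle genes, from lists chosen with earlier results of these data known and sharing no gene with the 46, were mostly higher or not called. The counts of these lists stand beside the 14.2% of all tested genes called higher and the 11.6% called lower. Of 30 partners of the Z-disc, M-band and thin filament, 29 were tested, 15 rose and 0 fell, with a median difference of 0.80 over the list. Tmod1, which caps thin filaments, averaged 13.1 ± 2.11 FPKM with phytic acid and 5.04 ± 0.323 FPKM with MC903 alone (SD, n = 4 each), a log2 fold change of 1.21 ± 0.12. Myom3, an M-band protein, rose by 1.17 ± 0.10, and the myosin-folding methyltransferase Smyd1 by 1.34 ± 0.14. At an unadjusted p under 0.05, 2 genes of the list were lower, and 0 were called lower with limma voom on recovered reads. Leaving out phytic acid replicate 2 gave 2 lower calls, and leaving out MC903 replicate 3 gave 1.

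Of 22 genes of the triad, where the tubule meets the calcium store, 21 were tested, 18 rose and 1 fell, with a median of 0.85. Trdn (triadin), which anchors calsequestrin to the release channel, rose by 1.36 ± 0.11, adjusted p = 0.000174. Jsrp1 and Cacna2d1, a triad scaffold and a subunit of the calcium channel, rose by 0.97 ± 0.11 and 1.003 ± 0.116. The 1 lower call was lost in 6 of the 8 fits that left out 1 library: without phytic acid replicate 1, 2 or 3 or without MC903 replicate 1, 2 or 4.

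Of 21 muscle energy isozymes 9 rose and 0 fell by limma, with a median of 0.56. Eno3, muscle enolase, averaged 249 ± 26.6 FPKM with phytic acid and 109.6 ± 15.4 FPKM with MC903 alone (SD, n = 4 each), a log2 fold change of 1.18 ± 0.13. The muscle subunits of cytochrome oxidase Cox7a1 and Cox8b rose by 1.77 ± 0.27 and 0.91 ± 0.15. At an unadjusted p under 0.05, 0 genes of this list were lower, and voom called 0 lower.

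Of 16 genes of the dystrophin complex and sarcolemma 15 were tested, 8 rose and 0 fell, with a median of 0.46. They included Dmd (dystrophin, 0.57 ± 0.13), Sgcd (delta-sarcoglycan, 0.65 ± 0.10) and Itgb1bp2 (melusin, 1.81 ± 0.20). Of 23 myogenic regulators and acetylcholine receptor genes 11 were tested, 5 rose and 0 fell, with a median of 0.20. Myog (myogenin) averaged 4.32 ± 1.94 FPKM with phytic acid and 1.23 ± 0.478 FPKM with MC903 alone (SD, n = 4 each), and Mef2c rose by 1.09 ± 0.26. The count of 8 was 5 without phytic acid replicate 1 or MC903 replicate 1 or 2, 4 when phytic acid replicate 2 was left out, and 3 when replicate 4 of that group was, or with the replicate number as a block. The count of 5 was 3 without phytic acid replicate 1 or 4 or MC903 replicate 1 or 2. In both lists 0 genes were lower at an unadjusted p under 0.05 or with voom, though 1 dystrophin and sarcolemma gene was called lower when phytic acid replicate 3 was left out.

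**Figure D4:**
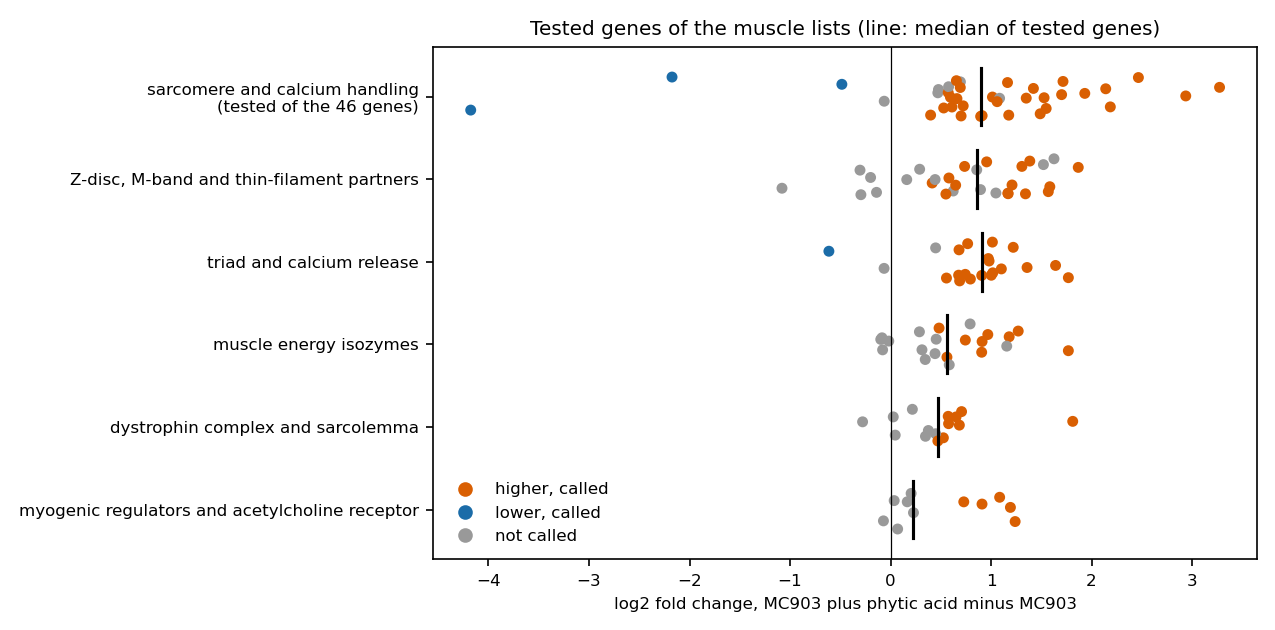
Log2 fold change of the tested genes of the 46 and of the 5 other muscle lists, MC903 plus phytic acid minus MC903, with a line at the median of the tested genes of each. The points lie mostly to the right of 0, and Myl7 (-4.18) and Tnni1 (-2.17) are the far left points.

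Markers of cell types were measured in the same libraries, and their counts stand beside the 14.2% of all tested genes called higher and the 11.6% called lower. Of 8 markers that define skeletal muscle 6 rose, with 7135 to 8405 summed FPKM with phytic acid and 3315 to 4050 with MC903 alone, though 7 of the 8 are among the 46 genes. Of 10 smooth muscle markers 8 rose and 0 fell, summing to 192 to 249.0 FPKM with phytic acid and 107.0 to 164 with MC903 alone, and Myh11, the smooth muscle heavy chain, rose by 0.97 ± 0.11. Of 8 adipocyte markers 2 rose (Adipoq and Cfd) and 0 fell, summing to 546 to 985 FPKM with phytic acid and 184 to 497 with MC903 alone. Of 8 nerve markers 4 rose, among them Mbp and Prx, and 0 fell, at 132 to 176 FPKM with phytic acid and 83.7 to 111 with MC903 alone.

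Of 7 dermal fibroblast markers Dcn rose and 0 fell, at 466 to 888 FPKM with phytic acid and 389 to 450 with MC903 alone. That count is at the share of all tested genes. The adipocyte and keratinocyte counts, from 7 tested markers each, are close to it and do not by themselves show a shift. All 8 adipocyte differences were above 0, with a median of 1.30, and 4 markers were higher at an unadjusted limma p under 0.05. Of the keratinocyte differences 2 were above 0 and 5 below, with a median of -0.15. The sums of both lists were separate between the groups. In the smooth muscle, adipocyte, nerve and fibroblast lists 0 markers were lower at an unadjusted p under 0.05 or with voom. Keratinocyte markers were present throughout, at 5948 to 7163 FPKM with phytic acid and 7643 to 10639 with MC903 alone, with Krt10 and Krt15 of the 7 markers higher and Krt14 lower. Of 6 endothelial markers 0 were called by limma or voom and 0 had an unadjusted p under 0.05, at 46.2 to 50.5 FPKM with phytic acid and 42.0 to 53.9 with MC903 alone. The 10 cardiac markers, Myl7 among them, summed to 3.12 to 5.21 FPKM with phytic acid and 8.95 to 61.2 with MC903 alone, and 3 of them were listed at 0 in at least 1 library. Myl7 by itself had 0.416 to 0.867 FPKM with phytic acid and 5.9 to 56.7 with MC903 alone, so the lower cardiac sum rests on Myl7. Of the 10 cardiac markers 3 were higher without overlap and 1 lower, with 5 differences above 0 and 5 below. No marker of the other 7 lists was listed at 0 in any library. The call on Krt10 was lost without phytic acid replicate 2 or MC903 replicate 1 or 4, and that on Mbp without phytic acid replicate 1 or 4. The part of the makeup of the sampled tissue in the muscle gene differences was not tested.

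**Figure D5:**
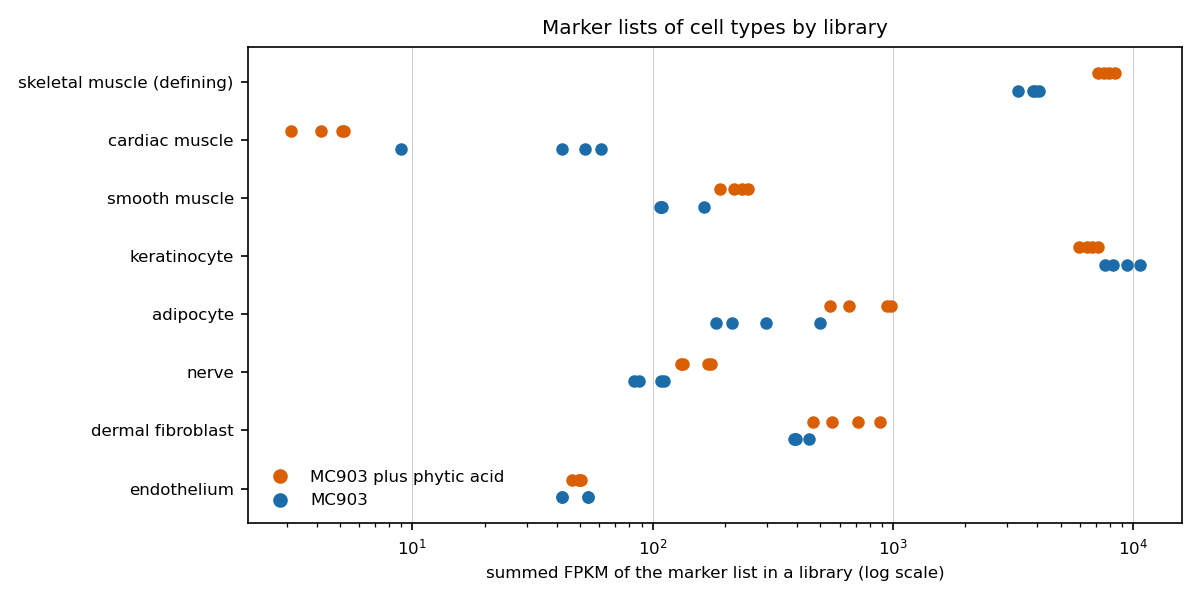
Summed FPKM of each marker list in each library on a log scale, with MC903 plus phytic acid drawn above MC903. Skeletal muscle, smooth muscle, adipocyte, nerve and dermal fibroblast sums are separate and higher with phytic acid. Cardiac and keratinocyte sums are separate and lower, the cardiac ones through Myl7 alone, and endothelial sums overlap.

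Depth also moved with the group. The library totals recovered were 38310034 to 42997271 reads with phytic acid and 31676938 to 37639478 reads with MC903 alone, so every phytic acid library was the deeper. FPKM corrects the level for depth, and the part of depth in the results was not tested beyond the scalings tried.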

How the data were processed

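RNA sequencing of skin gave 1 table, in which the authors deposited an FPKM value for each gene and library. Per the labels' protocols, TRIzol extraction was followed by a SMARTER mRNA-seq kit. Per the submitters' processing notes, the tools were HISAT2, TopHat2, cutadapt and DESeq, and the build was mm10; neither roles nor versions are stated. The sources used here do not give the annotation, strand setting or program behind the FPKM values. Rows without a name (51, at most 0.024% of a column) were left out, and for 21 repeated names the row of highest mean was kept.

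Values were analysed as log2(FPKM + 1), which understates changes of low genes. The two-sided test was limma's (version 3.58.1, R 4.3.3, eBayes with trend after lmFit), with group as the only factor, over the 12165 genes that reached 1 FPKM in at least 4 libraries. Log2 fold changes are phytic acid minus MC903 alone, errors are SE unless SD is named, and differences of untested genes are of unfiltered means. The fitting code was also run on simulated counts scaled to library size. That setting differs from these FPKM values, so it does not show how often the calls here are right.

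Reads were recovered as FPKM times GENCODE M21 exon length times a library total found from the value of 1 read. Of 17980 genes, 97.4% came out whole within 0.05 reads in all libraries, as did 43 of the 46 members (not Ttn, Neb and Xirp2). No count table was used. Replicates of a group differed by a chi-square per gene of 47.1 to 207, far above sampling noise, so none was a copy. Pairs with MC903 replicate 3 had 169 to 207, other MC903 pairs 47.1 to 94.8 and phytic acid pairs 74.9 to 165. Coordinates are from GENCODE M21 (GRCm38, which mm10 names) and sequences from RefSeq.

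The members, lists and rules were chosen with earlier results of these data known. Values in every library are given for the most abundant member of each role, the members that fell, the 3 largest and 3 smallest changes, and the 2 genes nearest the threshold on each side. A few members were added after their values were seen. From the other lists up to 3 called genes of smallest adjusted p are named. Some genes of those lists are included in the counts and are not reported here by name.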

Additional observations from a re-analysis of the deposited data

Results flagged for a closer look

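In groups of 4 libraries, the gap between an extreme library and its nearest neighbour was divided by the group's range, and a value above Dixon's 95% critical value was taken as standing apart. This was done for 150 groups, 92 of them of the 46 members, and chance marks about 1 group in 20. The 4 libraries so marked are given as values, and their causes were not tested. For Actn3, MC903 replicate 2 was low at 18.3 FPKM against 82.5 to 94.9 in the other 3 MC903 libraries, a gap of 0.838 of the range. For Myoz1, MC903 replicate 2 was low at 47.3 FPKM against 62.2 to 63.0, a gap of 0.95. For Myh7, MC903 replicate 3 was listed at 0.0123 FPKM while the other 3 were listed at 0, a gap of 1.0 that rests on a few reads. For Cfd, an adipocyte marker, MC903 replicate 3 was high at 326 FPKM against 100.3 to 134, a gap of 0.851.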

How the results depend on the processing

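Of the 32 called members, 22 kept their direction and call in all settings that could be fitted (up to 19), among them Mybph, Pvalb, Xirp2, Casq1, Mylpf, Myl1, Cacna1s, Acta1 and Myl7. Over all members and settings, 635 results kept direction and call, 54 kept direction but lost the call, 10 gained it and 3 changed sign. Those 3 were Myh4, at -0.023 to 1.10 when 1 library was left out and below 0 without MC903 replicate 2, and Tcap, at -0.14 to 0.068 and above 0 without replicate 1 of either group. Leaving out 1 library gave 24 to 32 called members, 23 to 31 higher and 1 to 3 lower. The count of 1 lower arose because Myl7 and Tnni1 reach 1 FPKM in only the 4 MC903 libraries and drop below the filter without any one of them. Over all genes, leaving out 1 library gave 1952 to 3891 calls, 1065 to 2386 higher and 887 to 1505 lower, against 3134, 1722 and 1412. The 3891 calls came without MC903 replicate 3, the library of lowest weight (0.355) where libraries were weighted. Library weights gave 4796 calls, 2865 of them higher, and a mean of at least 5 FPKM gave 1098 higher. For the lists, leaving out 1 library gave 0 to 2 lower Z-disc partners, 0 to 1 lower triad genes, 3 to 6 higher and 0 to 1 lower dystrophin and sarcolemma genes, and 3 to 5 higher myogenic genes. Library weights gave 1 lower Z-disc partner. No filter gave 0 lower triad genes and 5 higher dystrophin genes, median-of-ratios scaling 5 higher dystrophin genes, and the mean of at least 5 FPKM 3 higher dystrophin and 3 higher myogenic genes. Pecam1 and Cdh5, 2 endothelial markers near 0, changed sign with TPM scaling (Pecam1 0.0036, Cdh5 0.0057) and without 1 library (Pecam1 -0.092 to 0.030, Cdh5 -0.12 to 0.064). The cause of these shifts was not tested. Voom on recovered reads, added after seeing the data, called 3000 genes and 31 members, and no filter 26 members. No scaling moved the median of all genes by over 0.1.

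Replicate numbers are shared by the groups, and the labels do not say what the numbers mean. Deviations of same-numbered libraries from their group means had correlations of -0.283, -0.105, -0.286 and 0.225. With so few libraries these values cannot show whether a number marks anything shared. With the number as a replicate block, 2046 genes were called, 1098 of them higher, and 25 members (23 higher, 2 lower; Atp2a2 lost its call at adjusted p = 0.051 and Des at 0.0581), with 0 lower triad genes and 3 higher dystrophin genes. Only replicate 4 correlated best with its own number. Phytic acid replicates 1 and 2 correlated best with MC903 replicate 3 (0.398 and 0.121), and phytic acid replicate 3 with MC903 replicate 2 (0.302). Myh7 had 0 to 6 reads, with overlapping groups, so a difference was not detectable at this depth. Tnnc1 had 20, 0, 1 and 20 reads with phytic acid, against 1, 7, 6 and 5 with MC903 alone. Its groups also overlapped, and the wide spread between its phytic acid libraries would hide a difference.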

Other observations

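Of the 30 genes of the Z-disc partner list, 11 were highest in phytic acid replicate 3 among phytic acid libraries and in MC903 replicate 2 among MC903 libraries, a pattern picked after the values were seen. These are the libraries in which Myh4 was low. The share of all tested genes with the same pattern is not given here, so the count of 11 cannot be judged against it. Csrp3, a muscle LIM protein of the Z-disc, had 88.5, 135, 712 and 303 FPKM with phytic acid, against 56.1, 151, 67.6 and 64.2 FPKM with MC903 alone. Cryab, a small heat shock protein that binds desmin and titin, had 221, 214, 1356 and 516 FPKM with phytic acid, against 94.5, 254, 121 and 122 FPKM with MC903 alone. Ankrd2, an ankyrin repeat protein of stretched muscle, had 77.5, 129, 681 and 239.8 FPKM with phytic acid, against 221, 333, 153 and 214 FPKM with MC903 alone. Of the 11 genes Fhl1 and Hspb6 were called higher, with limma adjusted p-values of 0.00248 (Fhl1) and 0.0376 (Hspb6). The other 9 were not called, among them Csrp3 (adjusted p = 0.086), Cryab (0.0591) and Ankrd2 (0.88). The whole list of 30 genes summed to 6229 FPKM in phytic acid replicate 3 and to 1851 to 3019 in the other 3 phytic acid libraries, against 2157 in MC903 replicate 2 and 1469 to 1544 in the other 3 MC903 libraries. In the same 2 libraries Myh4 had 220.2 and 69.9 FPKM, against 461 to 725 in the other 6.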
